A study of Mus musculus with 45 samples.

Results

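The genes that move chloride and water across the kidney tubule were examined here as a set of 9. They were chosen by name for their roles from the 55401 genes counted in kidneys of 45 mice. *Cftr* and *Ano1* encode chloride channels, and *Ano6* encodes a phospholipid scramblase that also conducts ions. *Slc12a2*, *Kcnn4*, *Atp1b1* and *Fxyd2* encode a cotransporter, a potassium channel and pump subunits that set up the driving force for secretion. *Slc9a3* and *Aqp1* were taken to stand for proximal absorption as a contrast. The mRNA was obtained by translating ribosome affinity purification (TRAP), in which ribosomes carrying an EGFP-tagged L10a protein are pulled down. The tagged protein is switched on by Cre recombinase. Each library was thus meant to sample the mRNA held by ribosomes of those cells of 1 mouse in which Cre had been active. Noncystic mice were Pkd1 fl/+ (8 males, 7 females), Pkd1KO mice were Pkd1 fl/fl (7 males, 8 females) and Pkd1KO+ciliaKO mice were Pkd1 fl/fl with Kif3a fl/fl (9 males, 6 females). Every mouse, controls included, also carried 1 copy each of the R26 Rpl10a, Pax8rtTA and TetOCre alleles and received doxycycline from postnatal day 28 to 42, with harvest at day 49, an age of 7 weeks. At that age the Pkd1KO kidneys had not yet formed cysts. Pax8rtTA drives Cre along the kidney tubule as a whole, so the libraries mix segments. The paper found incomplete deletion of the floxed *Pkd1* allele in DNA of kidney tissue, which is not a measure of the captured cells alone. All 9 genes were annotated and passed the filter on low counts in both sexes.

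Fluid secretion by an epithelium begins with chloride entry across the basolateral membrane, which the sodium-potassium-chloride cotransporter encoded by *Slc12a2* carries out on the sodium gradient kept by the Na,K-ATPase. Chloride then leaves through apical channels, among them the cyclic AMP-activated channel CFTR and the calcium-activated channel encoded by *Ano1*, while basolateral potassium channels such as that of *Kcnn4* hold the membrane voltage that drives the exit, and sodium and water follow. In the healthy kidney the proximal tubule does the reverse, taking up sodium through the exchanger of *Slc9a3* and water through the channel of *Aqp1*, and cyclic AMP-driven chloride secretion is known as a mechanism by which fluid collects in kidney cysts.

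The sequences before the start sites of *Cftr* and *Aqp1* are given because these are the chloride channel and the water channel with a genotype difference below, and both start in RefSeq's table for GRCm38.p6. The libraries measured mRNA and not these promoters. Of the 9 genes, 7 had an entry. Each line holds the 250 bases before the RefSeq start, on the plus strand, at chr6:18170437-18170686 for *Cftr* and chr6:55336049-55336298 for *Aqp1*. Capitals mark the GC box GGGCGG, searched on both strands with overlapping matches each counted.
Cftr: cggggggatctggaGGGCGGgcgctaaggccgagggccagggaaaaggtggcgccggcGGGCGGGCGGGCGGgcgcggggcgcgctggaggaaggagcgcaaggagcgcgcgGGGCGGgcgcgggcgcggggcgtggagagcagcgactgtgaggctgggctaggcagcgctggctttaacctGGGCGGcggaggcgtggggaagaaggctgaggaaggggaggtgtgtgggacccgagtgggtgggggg
Aqp1: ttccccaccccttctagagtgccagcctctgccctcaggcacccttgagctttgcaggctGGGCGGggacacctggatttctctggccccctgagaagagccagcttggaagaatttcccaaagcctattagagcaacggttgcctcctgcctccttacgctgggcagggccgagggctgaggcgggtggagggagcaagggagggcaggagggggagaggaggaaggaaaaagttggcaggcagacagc
The *Cftr* stretch held 6 GC boxes in a sequence of 76.4% G and C, and the *Aqp1* stretch held 1 in 62.0%. Over the 32851 promoters of the table, 32.7% held a GC box. TGACG, the short form of the cyclic AMP response element, searched on both strands, was in neither stretch, and 17.8% of all promoters held it.

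The libraries held 80874556 to 132958186 fragments assigned to genes, and 3 counts, taken as the floor, corresponded to 0.0226 to 0.0371 CPM (counts scaled to a library of equal size). Levels below are CPM normalized over all 45 mice, and a floor or an interval covers counting error or the spread between mice only. As a check of the labels, *Kif3a*, which ciliaKO mice lose, lay between 13.95 and 25.75 CPM in the male noncystic mice and between 4.83 and 7.54 CPM in the male Pkd1KO+ciliaKO mice. In females the library labelled noncystic replicate 5 had 6.73 CPM against 22.9 to 25.4 CPM in the other noncystic mice, and the library labelled Pkd1KO+ciliaKO replicate 6 had 20.5 CPM against 6.58 to 8.35 CPM in the others, so these 2 libraries went against their labels. *Pkd1* mRNA ranged from 33.3 to 84.8 CPM in males and from 33.6 to 64.4 CPM in females, the genotypes overlapped, and no genotype difference in it passed the threshold, where the counts cover the whole gene and not only the floxed exons. The paper's principal component analyses did not point to significant outliers. Another 4 male libraries (noncystic replicate 3, Pkd1KO replicate 4 and Pkd1KO+ciliaKO replicates 6 and 8) were nevertheless taken to stand apart from the rest of the males. They are a set fixed by name, and no measure of it is given here. The genotype comparisons were therefore repeated without these libraries, and the repeats are given for each of the 9 genes where a difference is reported and, for the other genes of the pathway, wherever a call was lost. Each gene list of tubule segments had all its markers above 0, while markers of cells outside the tubule were present too: 5 endothelial markers (*Pecam1*, *Kdr*, *Flt1*, *Emcn*, *Plvap*) summed to 63.8 to 387 CPM over the males and 66.2 to 197 CPM over the females.

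The 9 genes differed widely in level. Expressed per transcript length as TPM, the median over the 45 mice was 2529 for *Fxyd2*, the regulatory gamma subunit of the Na,K-ATPase, and 1834 for *Atp1b1*, its beta subunit. *Aqp1* followed at 556 TPM, *Slc9a3* at 69.3 TPM, *Ano6*, a calcium-activated phospholipid scramblase that also conducts ions, at 34.4 TPM and *Slc12a2* at 13.3 TPM. *Cftr* had a median of 3.62 TPM (2.04 to 6.96) and *Ano1* of 3.19 TPM (1.47 to 7.92), and *Kcnn4*, a calcium-activated potassium channel, came last at 0.137 TPM (0.0191 to 0.867). This order held in 45 of 45 mice for each neighbouring pair except *Cftr* and *Ano1*, of which *Cftr* was the higher in 23 of 45 mice, a difference not larger than their spread. The TPM tables of the sexes were made separately, and the TPM of Pkd1KO male replicate 2 are understated because its values sum to 727843, against up to 946924 in the others.

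**Figure D1:**
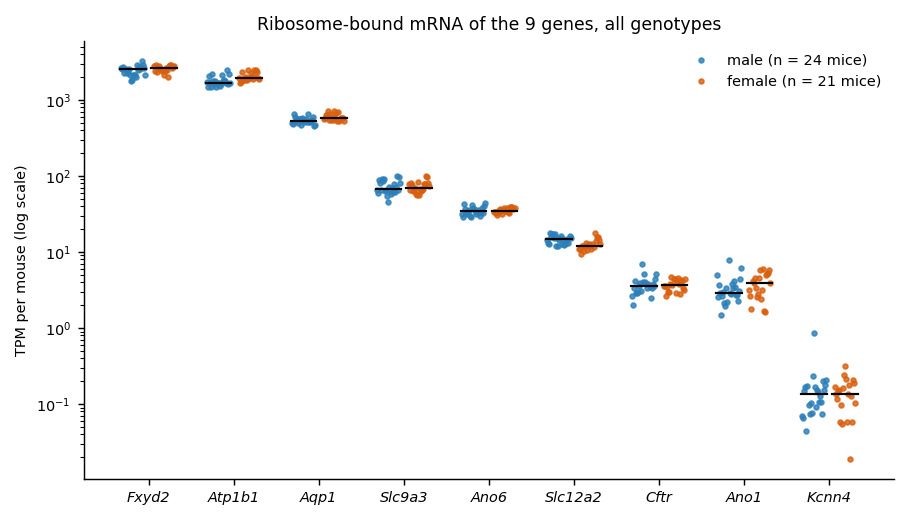
Level of each of the 9 genes per mouse in TPM on a log axis, with males (24 mice) and females (21 mice) side by side, all genotypes pooled; black lines are medians. The pump subunits *Fxyd2* and *Atp1b1* lie above 1000 TPM in every mouse, *Cftr* and *Ano1* overlap, and *Kcnn4* lies below 1 TPM throughout.

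At this stage few of the 9 genes differed between genotypes, as counted with edgeR's quasi-likelihood test and Benjamini-Hochberg adjustment over all genes tested, at an adjusted p of at most 0.05. In males, 1 of 9 (*Cftr*, higher) passed in Pkd1KO against noncystic mice, where 6.3% of all genes passed (4.05% higher, 2.25% lower). None of 9 passed in male Pkd1KO against Pkd1KO+ciliaKO mice, where 3.77% of all genes passed (1.99% higher, 1.78% lower), with 3 of 9 at an unadjusted p under 0.05 and 1 called by DESeq2. None passed in male Pkd1KO+ciliaKO against noncystic mice either, where 8.89% of all genes passed (5.63% higher, 3.26% lower), with 1 of 9 at an unadjusted p under 0.05 and 1 called by DESeq2. In females, none passed in Pkd1KO against noncystic mice, where 3.34% of all genes passed (2.02% higher, 1.32% lower), with 2 of 9 at an unadjusted p under 0.05 and 0 called by DESeq2. In female Pkd1KO against Pkd1KO+ciliaKO mice 1 of 9 (*Slc12a2*, lower) passed, where 11.7% of all genes did (7.05% higher, 4.65% lower). In female Pkd1KO+ciliaKO against noncystic mice 1 of 9 (*Aqp1*, lower) passed, where 2.54% of all genes did (0.67% higher, 1.87% lower). With 9 genes a share moves in steps of a single gene, so the counts are given beside the background and nothing more is read from them. The median log2 fold change of the 9 genes lay between 0.01 and 0.09 in the 6 comparisons, and that of all genes between -0.01 and 0.01. Comparisons within a sex share mice, so their values are not independent.

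**Figure D2:**
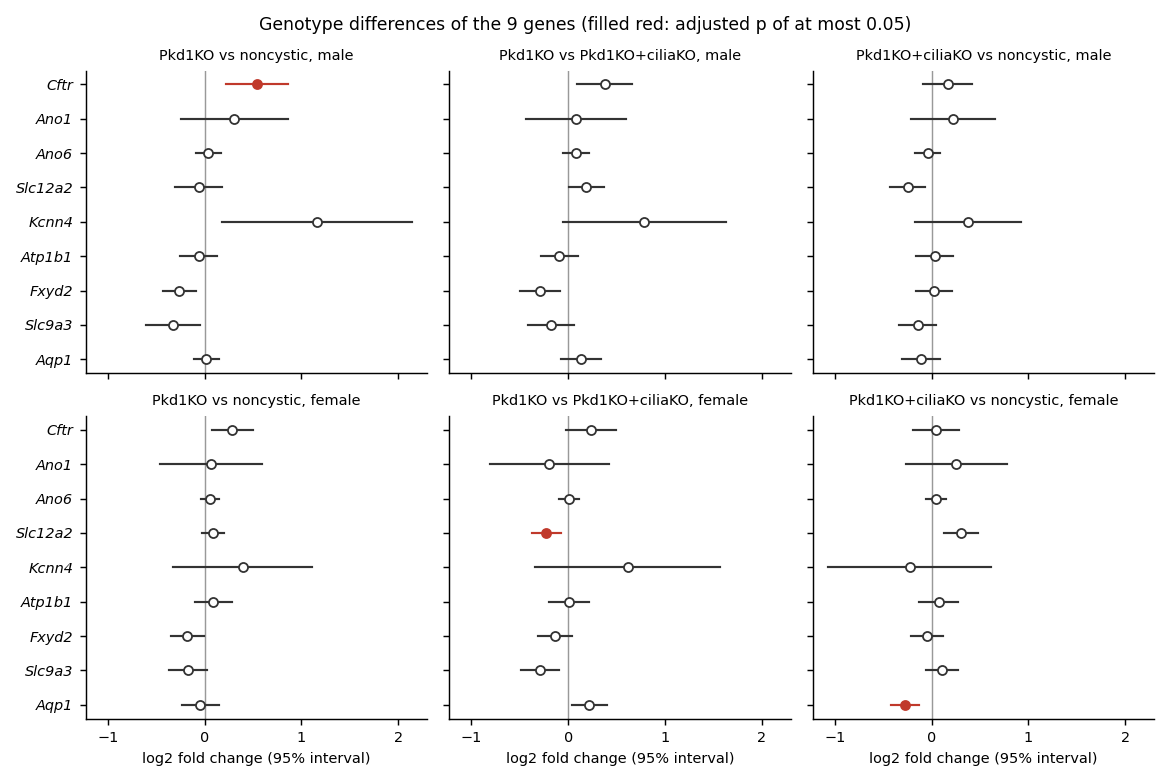
Log2 fold change of the 9 genes in the 3 genotype comparisons of males (top) and females (bottom), from edgeR's quasi-likelihood fit; lines are 95% intervals, and filled red points passed an adjusted p of at most 0.05. The 3 red points are *Cftr* at 0.54, *Slc12a2* at -0.22 and *Aqp1* at -0.27, and the widest intervals are those of *Kcnn4* and *Ano1*.

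*Cftr* (ENSMUSG00000041301.15, chr6:18170687-18322768, plus strand) encodes the cyclic AMP-activated chloride channel. In males its lowest, median and highest values were 5.75, 7.86 and 10.8 CPM in noncystic mice, 9.47, 10.3 and 17.99 CPM in Pkd1KO mice and 7.09, 8.62 and 12.6 CPM in Pkd1KO+ciliaKO mice. The male groups overlapped, with 3 of 7 Pkd1KO mice above every noncystic mouse and 7 of 7 above the noncystic median. The rise in male Pkd1KO over noncystic mice was 45.5% (log2 fold change 0.54 ± 0.15 SE, adjusted p = 0.0434). It was kept without the 4 male libraries that stood apart (0.58 ± 0.16, adjusted p = 0.0470), but over the 15 mice left out in turn it passed in 6 (adjusted p 0.0248 to 0.0879). It passed without Pkd1KO replicate 2, 4, 6 or 7 or noncystic replicate 4 or 8, and did not pass without Pkd1KO replicate 1, 3 or 5 or noncystic replicate 1, 2, 3, 5, 6 or 7. Without Pkd1KO replicate 3, the highest mouse, the log2 fold change was 0.41. Against Pkd1KO+ciliaKO males the log2 difference was 0.38 ± 0.14 (adjusted p = 0.130), and 0.40 ± 0.15 without the 4 libraries.

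In females *Cftr* ran from 6.495 over a median of 8.15 to 8.79 CPM in noncystic mice, from 6.65 over 10.1 to 10.5 CPM in Pkd1KO mice and from 6.60 over 7.69 to 9.83 CPM in Pkd1KO+ciliaKO mice. Of the 8 Pkd1KO females 7 lay above every noncystic female, and replicate 5, at 6.65 CPM, lay near the bottom of the noncystic range. The log2 fold change against noncystic females was 0.29 ± 0.10 (adjusted p = 0.141), and over the mice left out in turn it passed the threshold only without that one (0.35, adjusted p = 0.0223). Against Pkd1KO+ciliaKO females it was 0.24 ± 0.12 (adjusted p = 0.213). Without the 2 females that went against their labels these differences were 0.26 ± 0.11 (adjusted p = 0.214) and 0.31 ± 0.12 (adjusted p = 0.121). The difference between the sexes in the Pkd1KO against noncystic contrast, males minus females, was 0.26 ± 0.18 (adjusted p = 0.788). The exons of *Cftr* overlap an antisense gene, *Gm15592*, and since the strand setting of the counting is not given in the sources used here, reads of the pair cannot be told apart.

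Several cell-type marker lists moved with these male groups. The summed level of 5 thick ascending limb markers had a median of 4154 CPM (3247 to 6169) in noncystic and 2463 CPM (2388 to 4047) in Pkd1KO males, with 2 of 5 markers lower by the test, and that of 7 proximal tubule markers a median of 9950 CPM (6669 to 11050) and 7601 CPM (4540 to 9883), with 1 of 7 lower. Macrophage markers summed to a median of 118 CPM (99.4 to 151) and 162 CPM (132 to 577), with 2 of 4 higher, and tubule injury markers to 24.1 CPM (13.8 to 68.5) and 35.0 CPM (23.1 to 161), with 2 of 4 higher. Of 4 thin limb markers 1 was higher. Their summed median was 571 CPM (506 to 614) in noncystic and 618 CPM (575 to 628) in Pkd1KO males. *Aqp1* is 1 of these 4 and made up most of both sums, at medians of 490.2 and 498.1 CPM. It was not the marker called, and the sums are not a measure of the thin limb apart from *Aqp1*. Of 3 smooth muscle markers 1 was higher, at summed medians of 203 CPM (82.7 to 402) and 193 CPM (119 to 458). Without the 4 libraries that stood apart, 2 of 5 thick ascending limb and 2 of 7 proximal tubule markers were lower, 1 of 4 thin limb, 1 of 3 smooth muscle and 1 of 4 injury markers were higher, and 0 of 4 macrophage markers passed. Their part in the differences of *Cftr*, *Fxyd2*, *Slc9a3* and *Kcnn4* was not tested. In such bulk libraries fewer cells of a type and less mRNA per cell cannot be told apart.

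*Ano1* (ENSMUSG00000031075.19, chr7:144588549-144751974, minus strand) encodes the apical calcium-activated chloride channel. It had medians of 5.95, 6.24 and 6.92 CPM in noncystic, Pkd1KO and Pkd1KO+ciliaKO males and of 6.44, 5.93 and 8.57 CPM in the females in the same order. It was the second most variable of the 9 genes, with a coefficient of variation of 28.1% to 49.3% within groups. All groups overlapped. Its log2 fold changes ran from -0.20 ± 0.29 (female Pkd1KO against Pkd1KO+ciliaKO) to 0.30 ± 0.26 (male Pkd1KO against noncystic), none past the threshold. The 95% interval of the latter reached from -0.25 to 0.86, and the value was 0.06 without Pkd1KO replicate 4, the mouse highest in *Ano1*, and 0.07 without the 4 libraries that stood apart.

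*Ano6* (ENSMUSG00000064210.7, chr15:95790843-95974751, plus strand) had the lowest median coefficient of variation within groups of the 9 genes (5.98% over the 6 groups, from 4.50% to 9.56%), although *Slc12a2* and *Aqp1* varied less in some groups. It lay between 124.7 and 169.1 CPM in the males and between 115.5 and 138.3 CPM in the females. Its 6 genotype log2 differences lay between -0.04 and 0.08, none past the threshold, and the 95% intervals reached from -0.17 to 0.22 at their widest. *Ano6* overlaps *A130051J06Rik* and *Gm49172* on the other strand.

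*Slc12a2* (ENSMUSG00000024597.11, chr18:57878678-57946821, plus strand), the basolateral loader of chloride, was the gene of the set with the lowest adjusted p between the sexes in noncystic mice. Its lowest, median and highest values were 40.1, 58.5 and 65.8 CPM in noncystic, 39.9, 54.9 and 67.4 CPM in Pkd1KO and 44.6, 46.0 and 53.6 CPM in Pkd1KO+ciliaKO males. In females they were 32.7, 37.3 and 41.1 CPM in noncystic, 35.2, 40.2 and 40.9 CPM in Pkd1KO and 39.9, 43.8 and 58.3 CPM in Pkd1KO+ciliaKO mice. The Pkd1KO+ciliaKO group was the lowest of the 3 by median in males and the highest in females.

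Female Pkd1KO mice had 14.4% less *Slc12a2* than Pkd1KO+ciliaKO females (log2 fold change -0.22 ± 0.07, adjusted p = 0.0497). The male contrast of these genotypes went the other way, at 0.19 ± 0.08 (adjusted p = 0.234). Of 7 Pkd1KO males 5 lay above and 1 below every Pkd1KO+ciliaKO male. The male value was 0.23 ± 0.07 without the 4 libraries that stood apart (adjusted p = 0.0706). It passed without Pkd1KO male replicate 4 alone (adjusted p = 0.0357) and with limma voom. None of the 8 Pkd1KO females lay above the Pkd1KO+ciliaKO median, and the groups overlapped through the library labelled Pkd1KO+ciliaKO replicate 6. Without that library the Pkd1KO+ciliaKO females ran from 42.75 to 58.26 CPM, above the 40.86 CPM of the highest Pkd1KO female. The share of all genes that separate these groups was not counted, so the separation is not read as particular to *Slc12a2*. Without the same library the log2 difference was -0.26 ± 0.07 (adjusted p = 0.0314). Over the 14 mice left out in turn the difference passed in 1, without Pkd1KO+ciliaKO replicate 6 (adjusted p 0.0314 to 0.0913 over the 14), so leaving out any of the other 13 ends the call. Without Pkd1KO+ciliaKO replicate 1, the highest mouse at 58.26 CPM, the log2 difference was -0.15 ± 0.05 (adjusted p = 0.0727). Segment markers differed between the same groups: the summed median of thick ascending limb markers was 4281 CPM in Pkd1KO and 5487 CPM in Pkd1KO+ciliaKO females (1 of 5 lower), that of intercalated cell markers 288 and 388 CPM (1 of 5 lower) and that of distal convoluted tubule markers 1300 and 1430 CPM (1 of 4 lower). Other lists had a marker called the other way. Proximal tubule markers stood at 8317 and 7477 CPM (1 of 7 higher), macrophage markers at 139 and 93.5 CPM (1 of 4 higher) and injury markers at 63.8 and 74.4 CPM (1 of 4 higher). Pkd1KO+ciliaKO replicate 1 also had the highest summed principal cell markers of the females (1143 CPM). The part of these segments and cells in the *Slc12a2* difference was not tested. Against noncystic females the Pkd1KO+ciliaKO mice had a log2 difference of 0.31 ± 0.08 (adjusted p = 0.0599), which passed without the 2 females that went against their labels (0.35). In males the same contrast was -0.25 ± 0.09 (adjusted p = 0.0757), which passed without the 4 libraries that stood apart (-0.29). The sex difference of this contrast, males minus females, was -0.56 ± 0.12 (adjusted p = 0.0854 in the fit of 45 mice). It passed without the 6 libraries (-0.65) and by DESeq2 (-0.56).

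*Kcnn4* (ENSMUSG00000054342.8, chr7:24370263-24386690, plus strand) was measured on 3 to 136 fragments per mouse, so it carries the least precision of the set, and 1 female library was at the floor of 3 counts. Its lowest, median and highest values were 0.0802, 0.151 and 0.304 CPM in noncystic, 0.157, 0.268 and 1.36 CPM in Pkd1KO and 0.123, 0.234 and 0.338 CPM in Pkd1KO+ciliaKO males. The log2 fold change of 1.16 ± 0.46 in male Pkd1KO against noncystic mice did not pass (adjusted p = 0.149) and was 0.46 ± 0.32 without Pkd1KO replicate 4, the mouse at 1.36 CPM. That mouse, one of those that stood apart, also had the highest *Ano1* value (15.4 CPM) and, among Pkd1KO males, the highest summed macrophage (577 CPM), fibroblast (597 CPM) and lymphocyte (7.52 CPM) markers. The part of those cells in the *Kcnn4* and *Ano1* reads was not tested. In females *Kcnn4* medians were 0.218, 0.272 and 0.169 CPM in the same order of genotypes, and no difference passed.

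*Atp1b1* (ENSMUSG00000026576.12, chr1:164437109-164458355, minus strand), the beta subunit that carries the sodium pump to the membrane, lay between 1555 and 2312 CPM in all 45 mice. Its genotype log2 differences lay between -0.09 and 0.09, with 95% intervals that reached from -0.28 to 0.28, and none passed. Without the libraries that stood apart or went against their labels they lay between -0.05 and 0.09, and none passed. *Atp1b1* overlaps exons of the protein-coding gene *Nme7* on the other strand.

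*Fxyd2* (ENSMUSG00000059412.7, chr9:45399669-45410278, plus strand), which tunes the affinity of the pump for its ions, had lowest, median and highest values of 3025, 3380 and 3711 CPM in noncystic, 2448, 2816 and 3074 CPM in Pkd1KO and 2657, 3583 and 3762 CPM in Pkd1KO+ciliaKO males. Of the 7 Pkd1KO males 6 lay below every noncystic male, and the seventh lay within the noncystic range. The log2 fold change was -0.26 ± 0.08 (adjusted p = 0.0632) against noncystic and -0.29 ± 0.10 (adjusted p = 0.113) against Pkd1KO+ciliaKO males. These missed the threshold with edgeR and passed it with DESeq2 and with limma voom. Without the 4 libraries that stood apart they were -0.25 ± 0.08 (adjusted p = 0.0734) and -0.29 ± 0.09 (adjusted p = 0.0994). In females the values were 2895, 3288 and 3737 CPM in noncystic, 2484, 2848 and 3472 CPM in Pkd1KO and 2857, 3117 and 3407 CPM in Pkd1KO+ciliaKO mice, with log2 differences of -0.18 ± 0.08 (adjusted p = 0.277) and -0.14 ± 0.08 (adjusted p = 0.295).

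**Figure D3:**
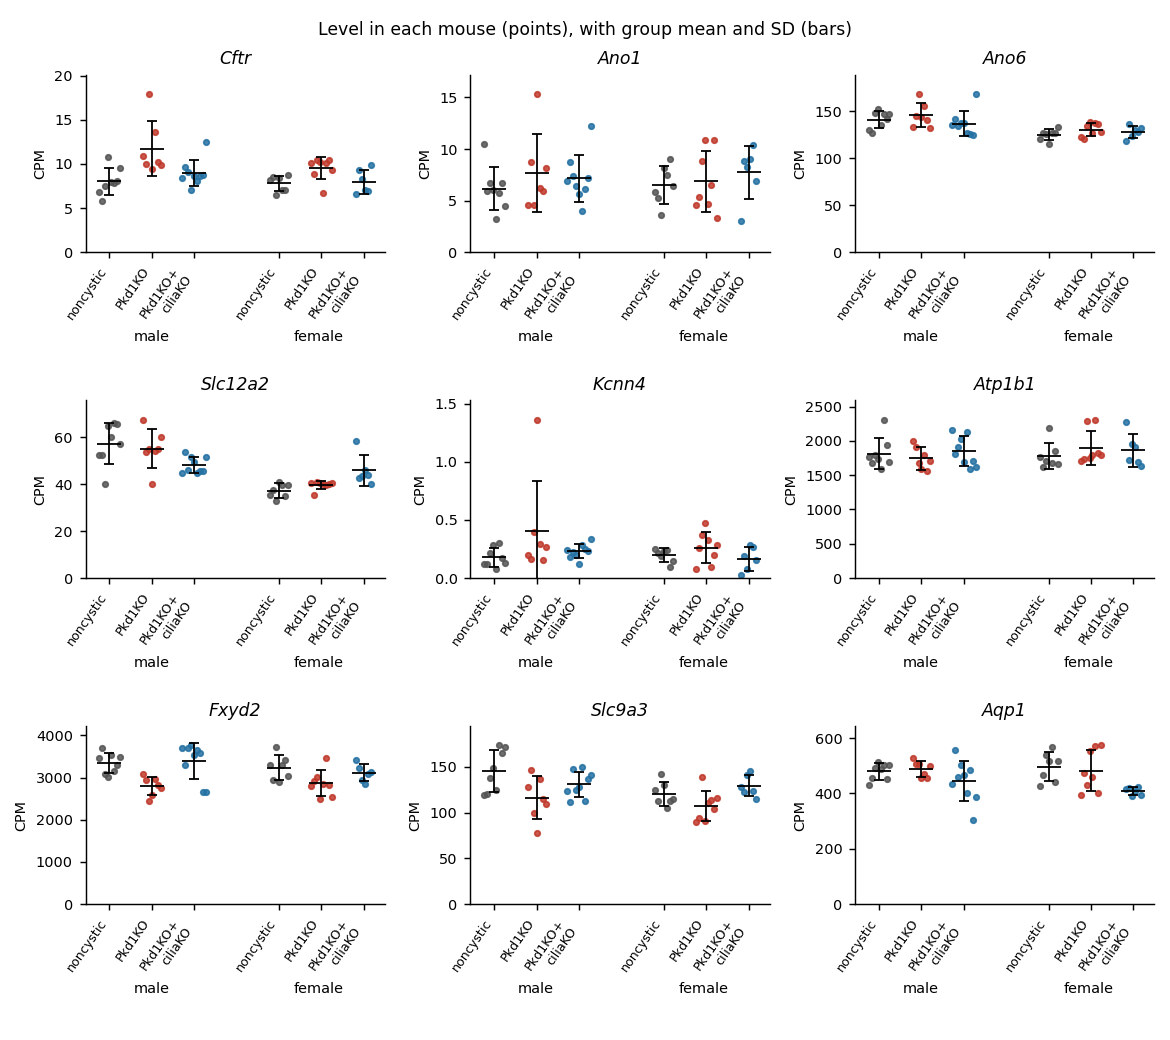
CPM of the 9 genes in each mouse, by genotype and sex, with the group mean (wide bar) and SD (error bar); each vertical axis starts at 0, and the lower SD bar of *Kcnn4* in Pkd1KO males runs below the axis. *Fxyd2* in Pkd1KO males lies between 2448 and 3074 CPM, the *Slc12a2* values of noncystic females (32.7 to 41.1 CPM) lie below most male values, and 1 Pkd1KO male stands out in *Kcnn4* and *Ano1*.

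Of the absorptive pair, *Slc9a3* (ENSMUSG00000036123.8, chr13:74121457-74169442, plus strand), the apical sodium-hydrogen exchanger, had lowest, median and highest values of 118.9, 143.2 and 173.4 CPM in noncystic, 77.5, 115.1 and 146.5 CPM in Pkd1KO and 112.0, 128.3 and 150.2 CPM in Pkd1KO+ciliaKO males. In females they were 105.1, 114.4 and 142.7 CPM, 89.4, 107.3 and 139.2 CPM, and 115.0, 126.0 and 145.4 CPM. Both Pkd1KO groups had the lowest median of their sex, with overlap throughout. The log2 differences against noncystic mice were -0.33 ± 0.13 in males (adjusted p = 0.156) and -0.17 ± 0.09 in females (adjusted p = 0.368), and without the libraries named above -0.25 ± 0.12 and -0.20 ± 0.09 (adjusted p = 0.271 and 0.288). Against Pkd1KO+ciliaKO females, 6 of 8 Pkd1KO females lay below every mouse of that group, at a log2 difference of -0.29 ± 0.09 (adjusted p = 0.0557). The lowest mouse of that group (115.0 CPM) was the library labelled Pkd1KO+ciliaKO replicate 6. Without it and noncystic replicate 5, 7 of 8 Pkd1KO females lay below the lowest Pkd1KO+ciliaKO female (122.5 CPM), at -0.32 ± 0.10 (adjusted p = 0.0513). With all libraries the difference passed only without Pkd1KO female replicate 3 when mice were left out in turn (adjusted p 0.00893), and it passed with DESeq2, with the 3 genotypes in 1 fit, with filterByExpr, with limma voom and with limma on log2(TPM + 1). The gene closest to *Slc9a3* across mice was *Slc12a1*, of the thick ascending limb. The part of the tubule segments in the *Slc9a3* differences was not tested, so they are not read as proximal alone.

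*Aqp1* (ENSMUSG00000004655.5, chr6:55336432-55348555, plus strand), the water channel of the proximal tubule and descending thin limb, had male medians of 490.2, 498.1 and 458.6 CPM in noncystic, Pkd1KO and Pkd1KO+ciliaKO mice, and no male difference passed (log2 0.02 ± 0.06, 0.13 ± 0.10 and -0.11 ± 0.09 in the order of the comparisons above). In females the lowest, median and highest values were 426.0, 515.8 and 568.6 CPM in noncystic, 395.5, 467.3 and 573.6 CPM in Pkd1KO and 389.8, 412.6 and 424.1 CPM in Pkd1KO+ciliaKO mice. All 6 Pkd1KO+ciliaKO females lay below all 7 noncystic females, with the libraries as labelled. The share of all genes that separate these groups was not counted, so the separation is not read as particular to *Aqp1*. Both libraries that went against their labels are among these mice: the one labelled noncystic replicate 5 had 568.6 CPM and the one labelled Pkd1KO+ciliaKO replicate 6 had 394.5 CPM, so the groups would overlap if these 2 labels were exchanged. Without the 2 libraries the 5 Pkd1KO+ciliaKO females still lay below the 6 noncystic females in *Aqp1*. *Slc12a2*, which overlapped with all mice, then separated the Pkd1KO+ciliaKO females from both other groups. The share of all genes that do so was not counted here either, so neither separation is read as particular to its gene. The *Aqp1* level was 17.1% lower (log2 fold change -0.27 ± 0.07, adjusted p = 0.0486). Over the 13 mice left out in turn the difference passed in 1, without noncystic replicate 1 (adjusted p 0.0295 to 0.130 over the 13), so leaving out any of the other 12 ends the call. It also missed the threshold without the 2 females that went against their labels (-0.23 ± 0.07, adjusted p = 0.0807), one of which, labelled noncystic replicate 5, had the highest value of the noncystic females. Of the 9 other settings, DESeq2 and limma voom called *Aqp1* here. Proximal tubule markers in these females summed to a median of 8011 CPM (6745 to 9570) in noncystic and 7477 CPM (5511 to 7995) in Pkd1KO+ciliaKO mice, with 0 of 7 markers past the test. Without the 2 libraries 1 of the 7, *Slc5a2*, was lower. Thin limb markers, of which *Aqp1* is 1 of 4, summed to a median of 613 CPM (522 to 699) and 546.5 CPM (530 to 620). Their median log2 difference was 0.37, with *Aqp1* the only one lower and 0 higher. Without the 2 libraries 1 was higher and 0 were lower. The part of these segments in the *Aqp1* difference was not tested.

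Between noncystic males and females 3 of 9 genes passed, where 27.5% of all genes did (15.3% higher and 12.2% lower in males), and each of the 3 was higher in males. *Slc12a2* was 54.9% higher in noncystic males than in noncystic females (log2 fold change 0.63 ± 0.10, adjusted p = 0.000118). *Ano6* was 13.6% higher in males (0.18 ± 0.05, adjusted p = 0.0137) and *Slc9a3* 21.2% higher (0.28 ± 0.10, adjusted p = 0.0468). *Slc12a2* and *Ano6* also passed without the 6 libraries, with DESeq2 and without the filter, while *Slc9a3* missed the threshold without the 6 libraries and without the filter. The other 6 genes had log2 sex differences between -0.14 and 0.06. No gene of the set had a genotype effect that differed between the sexes past the threshold in edgeR's quasi-likelihood test of the interaction. For Pkd1KO against noncystic mice 0 of 9 passed, with 0 at an unadjusted p under 0.05 and 0 by DESeq2, where 0.0126% of all genes passed. For Pkd1KO against Pkd1KO+ciliaKO mice 0 of 9 passed, with 1 at an unadjusted p under 0.05 and 0 by DESeq2, where 0.221% of all genes did. That gene was *Slc12a2*, at a log2 sex difference of 0.41 ± 0.12 (adjusted p = 0.243). For Pkd1KO+ciliaKO against noncystic mice 0 of 9 passed, with 1 at an unadjusted p under 0.05 and 1 by DESeq2, *Slc12a2* both times, where 0.0316% of all genes did.

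The other genes of the pathway were counted from 4 lists. Of 34 tested further chloride channels and exchangers, none passed in Pkd1KO against noncystic mice of either sex, where 6.3% of all genes passed in males and 3.34% in females. *Clcn7* passed in males without the 4 libraries that stood apart (-0.24, adjusted p = 0.0333). In male Pkd1KO+ciliaKO against noncystic mice *Slc26a7*, an anion exchanger of the collecting duct, was higher (log2 fold change 0.75 ± 0.13, adjusted p = 0.00137), and *Clcn7*, the lysosomal chloride-proton exchanger, and *Clcn2*, a plasma membrane chloride channel, were lower (-0.47 ± 0.08 and -0.39 ± 0.12), 1 higher and 2 lower of 34 where 5.63% of all genes were higher and 3.26% lower. *Ttyh2* was the only one to pass in female Pkd1KO against Pkd1KO+ciliaKO mice (0.29 ± 0.08, higher), where 11.7% of all genes passed. The median log2 fold change of the list lay between -0.07 and 0.05 in the 6 comparisons, against -0.01 to 0.01 for all genes. Between noncystic males and females 9 of the 34 were higher in males and 7 lower, where 15.3% of all genes were higher and 12.2% lower, and without the 6 libraries 13 were higher and 8 lower.

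Of 34 tested genes of ion loading and potassium recycling, 0 were higher and 3 lower in male Pkd1KO than in noncystic mice, where 4.05% of all genes were higher and 2.25% lower. The 3 were *Slc12a1*, the apical sodium-potassium-chloride cotransporter of the thick ascending limb, and the potassium channel genes *Kcnn1* (-0.51) and *Kcnn2* (-0.65), the latter pair named after their values were seen. *Slc12a1* had a mean of 1148 ± 306 CPM (SD, n = 8) in noncystic, 699 ± 172 CPM (n = 7) in Pkd1KO and 1155 ± 376 CPM (n = 9) in Pkd1KO+ciliaKO males. It was lower in Pkd1KO males than in both other groups (log2 -0.72 ± 0.18 and -0.73 ± 0.20, adjusted p = 0.0220 and 0.0454) and in Pkd1KO than in Pkd1KO+ciliaKO females (-0.53 ± 0.11, adjusted p = 0.00622), alongside the fall in thick ascending limb markers, of which it is 1. Both male calls of *Slc12a1* were lost without the 4 libraries that stood apart (-0.61 ± 0.18 and -0.48 ± 0.16, adjusted p = 0.0605 and 0.118), as was that of *Kcnn2* (-0.52, adjusted p = 0.115), while the female call was kept without the 2 libraries against their labels (-0.54 ± 0.12). The basolateral cotransporter gene *Slc12a2* and its apical relative *Slc12a1* stood at log2 -0.06 and -0.72 in the same male comparison. *Fxyd6*, a relative of *Fxyd2*, was lower in Pkd1KO+ciliaKO males than in noncystic and Pkd1KO males (-0.68 ± 0.11 and, for Pkd1KO over Pkd1KO+ciliaKO, 0.75 ± 0.15). In Pkd1KO+ciliaKO females *Slc4a7*, a sodium bicarbonate cotransporter, was higher than in noncystic females (0.60 ± 0.13) and *Kcnk1*, a potassium channel, was lower (-0.57 ± 0.10).

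Of 32 tested regulators of secretion, 1 rose and 1 fell in male Pkd1KO against noncystic mice, where 4.05% of all genes were higher and 2.25% lower. *Wnk3*, a kinase that raises the activity of the cation-chloride cotransporters that load chloride, rose in male Pkd1KO (0.77 ± 0.19, adjusted p = 0.0251) and in male Pkd1KO+ciliaKO mice (0.82 ± 0.18, adjusted p = 0.00669) over noncystic males, and *Wnk1* fell in Pkd1KO males (-0.35, named after its value was seen), a call lost without the 4 libraries (-0.28, adjusted p = 0.113). In females *Slc9a3r1*, the PDZ-domain scaffold that tethers CFTR and the *Slc9a3* exchanger to the apical membrane, was higher in Pkd1KO than in Pkd1KO+ciliaKO mice (0.36 ± 0.07, adjusted p = 0.00562) and lower in Pkd1KO+ciliaKO than in noncystic mice (-0.41 ± 0.06, adjusted p = 0.0164). *Orai1*, the pore of store-operated calcium entry, moved the same way in these comparisons (0.55 ± 0.13 and -0.44 ± 0.11), and its latter call was lost without the 2 libraries against their labels (-0.44 ± 0.12, adjusted p = 0.0517). *Pdzk1*, another PDZ scaffold, was lower in Pkd1KO+ciliaKO than in noncystic males (-0.27 ± 0.07) and higher in Pkd1KO than in Pkd1KO+ciliaKO females (0.43 ± 0.13), the latter lost without the same 2 libraries (0.45 ± 0.14, adjusted p = 0.0600). In female Pkd1KO against Pkd1KO+ciliaKO mice 3 of the 32 were higher and 2 lower, where 7.05% of all genes were higher and 4.65% lower. The 2 lower were *Wnk4* (-0.30 ± 0.08) and *Stk39* (-0.24 ± 0.07), named after their values were seen. Without the 2 libraries *Wnk4* was kept (adjusted p = 0.0335) and *Stk39* lost (adjusted p = 0.0519). In female Pkd1KO+ciliaKO against noncystic mice 0 were higher and 2 lower, where 0.67% and 1.87% of all genes were. No regulator passed in female Pkd1KO against noncystic mice, where 3.34% of all genes did.

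Of 26 tested genes of proximal absorption, *Slc5a2*, the sodium-glucose cotransporter of the early proximal tubule, had the largest log2 difference among the list genes past the threshold. It lay between 53.3 and 98.3 CPM in noncystic males, between 18.6 and 83.6 CPM in Pkd1KO males and between 2.73 and 5.6 CPM in Pkd1KO+ciliaKO males. The last group thus lay below all others, and the share of all genes that separate these groups was not counted. The log2 fold change of Pkd1KO+ciliaKO against noncystic males was -4.48 ± 0.16 (adjusted p = 1.51e-12). In females the library labelled noncystic replicate 5 had 6.92 CPM against 72.7 to 92.2 CPM in the others, and the library labelled Pkd1KO+ciliaKO replicate 6 had 66.4 CPM against 2.23 to 5.33 CPM in the others, the same 2 libraries that went against their labels in *Kif3a*. With them the female difference was -2.31 ± 0.80 (adjusted p = 0.115), and without them -4.40 ± 0.18 (adjusted p = 1.88e-08). *Aqp7*, a channel for water and glycerol, was higher in male Pkd1KO than in noncystic and in Pkd1KO+ciliaKO mice (0.37 ± 0.08 and 0.58 ± 0.15) and in female Pkd1KO than in Pkd1KO+ciliaKO mice (0.64 ± 0.14). It was lower in Pkd1KO+ciliaKO than in noncystic females (-0.41 ± 0.10, adjusted p = 0.0441), the comparison in which *Aqp1* was also lower, and *Aqp1* did not pass in the other 3. *Cubn*, an endocytic receptor, was lower in Pkd1KO and Pkd1KO+ciliaKO than in noncystic males (-0.46 ± 0.13 and -0.50 ± 0.10), and *Slc13a3*, a dicarboxylate transporter, was lower in female Pkd1KO than in noncystic mice (-0.55 ± 0.09). In male Pkd1KO+ciliaKO against noncystic mice 1 of the 26 list genes was higher and 5 were lower, where 5.63% of all genes were higher and 3.26% lower, and without the 4 libraries that stood apart 1 was higher and 8 were lower. Over the 4 lists and 6 genotype comparisons 51 calls were made with all mice, of which 42 were also made without the libraries that stood apart or went against their labels. The 9 lost were those given above for *Slc12a1*, *Kcnn2*, *Wnk1*, *Orai1* and *Pdzk1*, and those of *Kcnj1* in male and of *Stk39* and *Slc5a1* in female Pkd1KO against Pkd1KO+ciliaKO mice, these named after their values were seen, and another 18 calls were made only without those libraries.

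**Figure D4:**
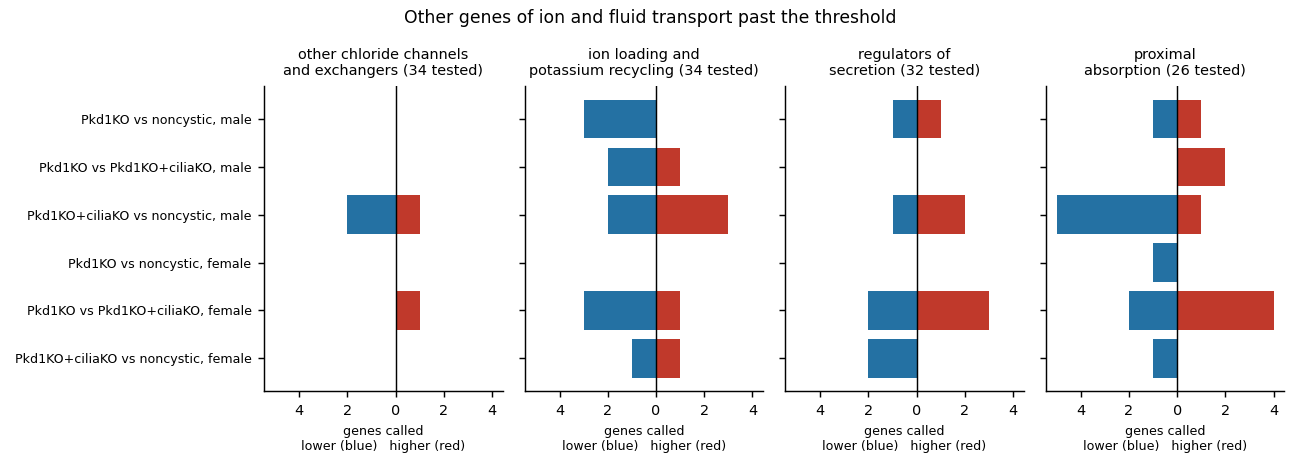
Number of genes past an adjusted p of at most 0.05 in each of 4 lists of ion and fluid transport genes, in the 3 genotype comparisons of each sex; bars to the right count genes higher in the first-named group and bars to the left genes that were lower. In Pkd1KO against noncystic mice no further chloride channel or exchanger passed in either sex, where 6.3% of all genes passed in males and 3.34% in females. The longest bar of the 6 comparisons is the 5 of 26 proximal absorption genes lower in Pkd1KO+ciliaKO than in noncystic males, where 3.26% of all genes were lower.

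Genes whose level followed each of the 9 across mice were ranked, over 15828 genes, by the lower of the Pearson correlations of log2(TPM + 1) in 24 males and in 21 females. These r values are descriptions; the mice share library preparation, and groups and segment makeup differ between them. The closest were *Slc12a1* for *Slc9a3* (r = 0.84 in males and 0.80 in females), *Scnn1a*, a subunit of the epithelial sodium channel, for *Atp1b1* (0.88 and 0.83), *Igsf10*, *Fkbp10* and *Scarf2* for *Ano1* (0.865 to 0.883 over both sexes), *Gpr107* for *Ano6* (0.91 and 0.88) and *Rom1* for *Fxyd2* (0.79 and 0.81). *Cftr* was followed most closely by *Spaca7* (0.76 and 0.85), *Slc12a2* by *Suco* (0.74 and 0.85), *Kcnn4* by *Asb2* (0.80 and 0.76) and *Aqp1*, least followed of the 9, by *Serpina1f* (0.60 and 0.66). No member of the set was among the 3 closest genes of another, although *Kcnn1*, from the potassium channel list, ranked in the first 3 for *Fxyd2* (0.77 in both sexes).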

How the data were processed

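TRAP RNASeq libraries from kidneys of 45 mice, 1 library per mouse, were grouped by genotype and sex from the sample labels, and each mouse was taken as 1 replicate. The authors used fastp 0.20.0 for trimming, STAR 2.7.9 for alignment (GRCm38.p6, GENCODE vM25) and featureCounts 2.0.0 for counting. The libraries were depleted of ribosomal RNA and sequenced in 1 batch with paired 150 bp reads. The strand and multimapping options are not given in the sources used here. The deposited count tables hold raw counts per gene, and the deposited TPM tables, 1 per sex, cover protein-coding genes only, kept where 20% or more of the mice of a sex had 6 or more counts. A gene length column deposited with the counts was used only in the gene table.

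Coordinates are those of the deposited tables (GRCm38), and symbols came from GENCODE vM21 (55141 of 55401 identifiers matched). The same filter left 15991 genes in males and 15968 in females. Each pair of genotypes within a sex was fitted with edgeR 4.0.16 in R 4.3.3 (TMM, quasi-likelihood test, Benjamini-Hochberg over all genes, threshold 0.05). Differences between the sexes were tested in 1 fit of 45 mice over 15828 genes, and noncystic males against noncystic females in a fit of their own. Where a mouse was left out, the remaining mice were refitted. Intervals are 95%. CPM were normalized over all mice, and TPM were used to compare genes. No pair of replicates agreed within sampling noise. The edgeR step was tested on simulated data. The alternatives were DESeq2 1.42.0, its size factors in edgeR, 3 genotypes in 1 fit, no filter, filterByExpr, a replicate block, limma 3.58.1 (voom with quality weights, and log2(TPM + 1)), leaving out libraries that stood apart or went against their labels, and leaving out each mouse.

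The 9 members and the gene lists were chosen with earlier results of these data known. Beyond the 9, the text names *Pkd1* and *Kif3a*, up to 4 genes per list that passed in the most genotype comparisons, and the genes closest in correlation, out of 3 per member. Other names were chosen after their values were seen. Promoter sequences are RefSeq's for GRCm38.p6. One marker result is not reported here.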

Additional observations from a re-analysis of the deposited data

Results flagged for a closer look

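In each of the 54 combinations of gene and group, Dixon's test asked whether the highest or lowest mouse lay far from the rest at the 95% critical value, which chance does in about 1 of 20 groups. It picked out 8. *Cftr* was at 12.55 CPM in Pkd1KO+ciliaKO male 9 (next mouse 9.678 CPM), and at 6.651 CPM in Pkd1KO female 5, below the next lowest at 8.881 CPM. *Ano6* was at 168.1 CPM in the same Pkd1KO+ciliaKO male 9 (next 142.2 CPM). Pkd1KO male 4 was high in *Ano1*, at 15.38 CPM (next 8.769 CPM), and in *Kcnn4*, at 1.363 CPM (next 0.3967 CPM). *Slc12a2* was low in Pkd1KO female 2, at 35.24 CPM (next 39.41 CPM), and high in Pkd1KO+ciliaKO female 1, at 58.26 CPM (next 46.13 CPM). *Atp1b1* was at 2182 CPM in noncystic female 4 (next 1855 CPM). Of these mice, Pkd1KO male 4 is also one of the 4 males taken to stand apart, and Pkd1KO+ciliaKO male 9 is not.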

How the results depend on the processing

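No member's log2 fold change that passed the threshold changed sign under any alternative. The number of the 9 genes that passed moved as follows. Male Pkd1KO against noncystic (1): 2 with DESeq2 and with limma voom, 0 with limma on log2(TPM + 1), and 0 to 1 with each mouse left out. Male Pkd1KO against Pkd1KO+ciliaKO (0): 1 with DESeq2, 3 with voom, 1 on log2(TPM + 1), and 0 to 1 with each mouse left out. Male Pkd1KO+ciliaKO against noncystic (0): 1 with DESeq2, with voom and without the 4 males that stood apart, and 0 to 1 with each mouse left out. Female Pkd1KO against noncystic (0): 0 to 1 with each mouse left out. Female Pkd1KO against Pkd1KO+ciliaKO (1): 2 with DESeq2, with 3 genotypes in 1 fit, with filterByExpr and on log2(TPM + 1), 0 with no filter, and 0 to 1 with each mouse left out; voom called 1, but *Slc9a3* in place of *Slc12a2*. Female Pkd1KO+ciliaKO against noncystic (1): 2 with DESeq2 and with voom, 0 with DESeq2's size factors, with no filter and with filterByExpr, and 0 to 1 with each mouse left out. The 1 called with 3 genotypes in 1 fit, on log2(TPM + 1) and without the 2 females against their labels was *Slc12a2*, so *Aqp1* was called in 2 of 9 alternatives (DESeq2 and voom). The sex difference of Pkd1KO against Pkd1KO+ciliaKO (0) gave 1 without the 6 libraries, and that of Pkd1KO+ciliaKO against noncystic (0) gave 1 with DESeq2 and without the 6 libraries. The cause was not tested.

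The main fits did not pair mice by replicate number. Over 41 same-numbered pairs the correlation of deviations from group means ran from -0.35 to 0.447, with 15 over 0.1 and 8 mice closest to their own number. Values for pairs of different numbers are not given, so these do not settle whether the mice were paired. With the replicate block, the male Pkd1KO against noncystic count was 0, as were the female Pkd1KO against Pkd1KO+ciliaKO and Pkd1KO+ciliaKO against noncystic counts.

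Over all genes, the main counts of 1008, 603 and 1422 in the male comparisons ranged over the alternatives from 625 to 1640, 178 to 1389 and 765 to 2803, and the female counts of 533, 1869 and 405 from 298 to 962, 625 to 2634 and 74 to 1357. With Pkd1KO+ciliaKO female 2 or 3 left out, 8 genes passed in the last of these. On log2(TPM + 1) the calls higher and lower were 262 and 363 in male Pkd1KO against noncystic (648 and 360 with edgeR), 159 and 408 in male Pkd1KO against Pkd1KO+ciliaKO (318 and 285), 584 and 1583 in the female comparison of the same groups (1126 and 743) and 875 and 125 in female Pkd1KO+ciliaKO against noncystic (107 and 298). At 3 to 136 fragments per mouse, depth limits *Kcnn4* more than the other 8 genes.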
